A study of Arabidopsis thaliana with 12 samples.

Results

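A retained intron is a stretch that one form of an mRNA removes as an intron and another form keeps. The introns described here are those that the authors' splicing tables list with the type IR in seedlings of Arabidopsis thaliana under chilling: 286 in the table for the wild type Col-0 and 327 in the table for smeb mutants. Joined by gene and position they make 425 retained introns among the 1891 splicing events of any kind in the 2 tables. Of the 425, 188 stood in both tables, 98 in the Col-0 table alone and 139 in the smeb table alone. The introns were thus chosen by the false discovery rate (FDR) of the authors' calls, so the membership and the FDR of each intron are given as a description and carry no test.

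The study sequenced total RNA from 12 libraries of whole seedlings, with 2 replicates in each of 6 groups. Col-0, the mutant smeb-1 and the mutant smeb-2 were grown on medium of 0.5 strength to an age of 12 days and kept at 22 °C or moved to 4 °C for 24 h. The alleles smeb-1 and smeb-2 affect SmEb, a subunit of the Sm core, and the labels do not say what kind of lesion either carries. The sample labels give the control as 22 °C for 24 h, and the protocol gives it as 0 h of cold. All samples carry the background Col-0 and no other treatment is named. The table headers name the genotype and the condition of each table but not the control group, so whether the tables share libraries, and how both alleles were combined, is unknown here. The tables hold a p-value and an FDR for each event. They hold no value per library, no size of change and no direction, so that an intron listed here may have been kept more or less often in the cold.

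Introns are recognised by their 5′ splice site, which the U1 small nuclear ribonucleoprotein (snRNP) binds, and by the polypyrimidine tract and 3′ splice site, which the U2 auxiliary factor binds. Sm proteins form a ring around the RNA of the U1, U2, U4 and U5 particles. Intron retention is the commonest form of alternative splicing in plants. An intron kept in the coding sequence can bring a premature stop codon, and mRNAs with such a stop far upstream of the last exon junction can be degraded by nonsense-mediated decay. A kept intron can also stay in the nucleus with its mRNA, add residues to the protein, or, in an untranslated region (UTR), leave the protein as it is.

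Sequences of 3 sets show what the listed intervals look like. They were read from the RefSeq genome (TAIR10.1, with TAIR10 coordinates) 5′ to 3′ on the strand of the listed gene. The first set holds coding introns that bring a stop, and the capitals mark the first stop codon read in frame from the upstream exons. HAB1, a phosphatase that counteracts abscisic acid signals, is listed for intron 4 (chr1:27392394-27392516, plus strand). RCA, the Rubisco activase of the chloroplast, is listed for intron 6 (chr2:16571067-16571190, minus strand). PETC, an iron-sulfur subunit of cytochrome b6f, is listed for intron 1 (chr4:1440347-1440437, plus strand). ATU2AF65A, the large subunit of the U2 auxiliary factor, is listed for intron 11 (chr4:17294431-17294703, minus strand). AHP2, a phosphotransfer protein of cytokinin signalling, is listed for intron 4 (chr3:11264618-11264685, minus strand). For U1-70K, a protein of the U1 snRNP, the first 150 bases of the 909 nt of intron 6 are shown (chr3:18828199-18828348, minus strand).
HAB1 intron 4: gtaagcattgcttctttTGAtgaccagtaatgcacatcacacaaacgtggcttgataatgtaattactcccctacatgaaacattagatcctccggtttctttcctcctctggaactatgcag
RCA intron 6: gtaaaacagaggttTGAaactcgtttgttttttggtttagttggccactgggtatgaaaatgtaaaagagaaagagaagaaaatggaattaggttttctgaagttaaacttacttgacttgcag
PETC intron 1: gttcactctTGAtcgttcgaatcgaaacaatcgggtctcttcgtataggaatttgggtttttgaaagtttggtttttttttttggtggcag
ATU2AF65A intron 11: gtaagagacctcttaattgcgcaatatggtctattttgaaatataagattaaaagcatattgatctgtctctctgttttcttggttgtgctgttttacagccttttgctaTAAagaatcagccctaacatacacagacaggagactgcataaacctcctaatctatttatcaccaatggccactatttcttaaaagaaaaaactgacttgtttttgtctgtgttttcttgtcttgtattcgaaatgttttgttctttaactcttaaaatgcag
AHP2 intron 4: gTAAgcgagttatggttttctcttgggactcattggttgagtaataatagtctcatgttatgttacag
U1-70K intron 6, first part: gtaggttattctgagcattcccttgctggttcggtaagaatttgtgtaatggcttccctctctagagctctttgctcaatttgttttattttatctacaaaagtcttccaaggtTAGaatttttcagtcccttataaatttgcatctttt

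The second set holds introns that keep the reading frame and bring no stop. The form that keeps such an intron reads a longer protein than the form that removes it. Each stretch shown also lies inside a coding exon of an annotated transcript of its gene, so the longer reading is already annotated. The capitals mark the first and last 2 bases, GT and AG in each. GRP7, a glycine-rich RNA-binding protein controlled by the clock and by cold, is listed for a stretch of 51 nt, 17 codons, that the annotation gives as intron 2 of a transcript (chr2:9265665-9265715, minus strand). COR15A, a protein that protects chloroplast membranes in freezing, is listed for 69 nt, 23 codons (chr2:17711309-17711377, minus strand). GLU1, a glutamate synthase, is listed for 78 nt (chr5:1130307-1130384, plus strand). ARC5, a dynamin-like protein of chloroplast division, is listed for 108 nt (chr3:6851210-6851317, minus strand). MAF1, a MADS-box factor related to the flowering repressor FLC, is listed for 81 nt (chr1:28958664-28958744, plus strand).
GRP7: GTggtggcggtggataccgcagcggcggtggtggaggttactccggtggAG
COR15A: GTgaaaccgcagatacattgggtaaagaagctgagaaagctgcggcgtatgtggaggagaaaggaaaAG
GLU1: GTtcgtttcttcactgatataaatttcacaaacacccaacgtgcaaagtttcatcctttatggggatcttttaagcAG
ARC5: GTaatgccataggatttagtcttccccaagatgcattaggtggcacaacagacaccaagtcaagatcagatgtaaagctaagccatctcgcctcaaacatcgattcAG
MAF1: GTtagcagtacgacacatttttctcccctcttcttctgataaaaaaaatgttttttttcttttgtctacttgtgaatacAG

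The third set holds intervals whose ends carry a direct repeat, so that the same joined sequence results if the interval is shifted by as many bases as the capitals mark. In EXT4, a cell wall extensin, the repeat covers all 48 nt of the interval (chr1:28895902-28895949, minus strand). In NUC-L1, a nucleolin, it covers all 45 nt (chr1:18101172-18101216, plus strand). In PRP4, a proline-rich cell wall protein, it covers 26 of 45 nt (chr4:18097542-18097586, minus strand). In UBQ10, a polyubiquitin gene, it covers 32 of 228 nt, and the interval is 76 codons long, the length of a ubiquitin unit (chr4:2719469-2719696, plus strand).
EXT4: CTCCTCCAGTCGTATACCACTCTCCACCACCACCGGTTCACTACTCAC
NUC-L1: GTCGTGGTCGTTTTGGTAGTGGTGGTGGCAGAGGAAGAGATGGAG
PRP4: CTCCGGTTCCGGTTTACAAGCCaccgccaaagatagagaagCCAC
UBQ10: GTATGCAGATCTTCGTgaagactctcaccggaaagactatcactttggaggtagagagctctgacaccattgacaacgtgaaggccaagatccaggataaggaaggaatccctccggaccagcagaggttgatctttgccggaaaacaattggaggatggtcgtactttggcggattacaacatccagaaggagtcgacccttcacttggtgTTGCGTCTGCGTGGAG

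In each table, retained introns stood among many other calls. The Col-0 table lists 1339 of 9710 tested events, or 13.8%, and the smeb table lists 1359 of 10308, or 13.2%, with the numbers tested recovered from the pairs of p-value and FDR. The number of retained introns among the tested events is not stated, so a rate for this kind alone could not be formed. The Col-0 table shared 65.7% of its retained introns with the smeb table, beside 58.8% of its events of all other kinds. The smeb table shared 57.5% of its retained introns with the Col-0 table, beside 60.0% of its other events.

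With the other table kept at its limit of 0.05, the shared part was larger in the class of FDR 0 than in that of 0.01 to 0.05. A stricter limit on both tables did not raise both shares. Under 0.01 the Col-0 share was 70% and the smeb share 51.9%, and under 0.001 they were 73.0% and 48.6%. Of 87 introns that the authors' deposited table for Col-0 gives an FDR of 0, 78 (89.7%) stood in the smeb table too, against 36 of 86 (41.9%) between 0.01 and 0.05. Of 139 introns that the authors' deposited table for smeb gives an FDR of 0, 102 (73.4%) stood in the Col-0 table, against 18 of 57 (31.6%) between 0.01 and 0.05. Many introns in the Col-0 table alone were calls near the limit: 50 of the 98 had 0.01 or more in the authors' deposited table, and 9 had 0. Of the 139 in the smeb table alone, 37 have an FDR of 0 and 39 have 0.01 or more in the authors' deposited table. Whether an intron absent from a table was tested there is unknown, and the difference between genotypes was not tested at any intron. Among the 188 shared introns, 64 have 0 for each genotype in the authors' deposited table, 84 have a lower FDR in smeb and 40 a lower FDR in Col-0. Each temperature had 4 mutant libraries and 2 of Col-0. How far the number of libraries sets these FDR values was not tested, so they do not measure the size of a response.

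**Figure D1:**
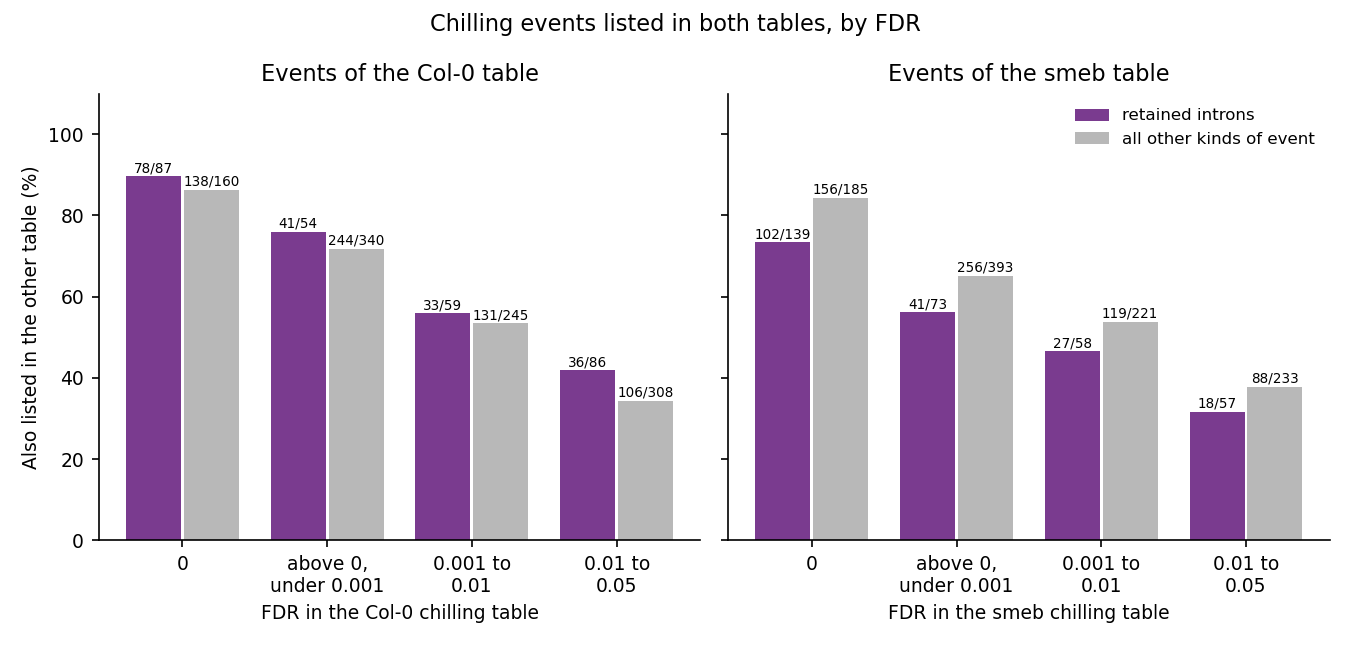
Share of listed events (y axis, percent) that the other chilling table lists at the identical position, for retained introns (purple) and all other kinds of event (grey), in 4 classes of FDR (x axis). Numbers over the bars give shared and listed events, from 78 of 87 to 36 of 86 retained introns in the Col-0 table and from 102 of 139 to 18 of 57 in the smeb table. For all other kinds they run from 138 of 160 to 106 of 308 in the Col-0 table and from 156 of 185 to 88 of 233 in the smeb table.

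The tables end at an FDR of 0.05. Just inside this limit, the authors' deposited table for Col-0 has TUB8, a beta-tubulin, at 0.0493 and AT4G04692 at 0.0488. The authors' deposited table for smeb has AT1G57610, annotated as a calcium uniporter, at 0.0450 and AT3G15351 at 0.0433. Introns just outside the limit are not listed, so their values are not shown.

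The 425 introns lay in 404 genes, 277 of them in the Col-0 table and 310 in the smeb table, with 183 in both. Of these genes 382 are annotated as protein-coding. Of all 24197 genes with an annotated intron, 1.64% had a listed retained intron. Of the 6329 genes in which an annotated transcript keeps an intron that another removes, 5.53% did. A single intron was listed in 384 of the genes, 2 in 19 genes and 3 in AT1G27921, a non-coding RNA whose 3 listed intervals are annotated introns of the gene MAP65-8 on the opposite strand. In LNK2, a co-activator of clock genes, 2 introns of the 5′ UTR stood in both tables. Of the 404 genes, 104 also had an event of another kind. Another kind of event overlapped the retained intron itself in 20 of 286 cases (6.99%) in Col-0 and in 24 of 327 (7.34%) in smeb, mostly an alternative 5′ or 3′ splice site.

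After 1 base is taken off each end, 327 of the 425 intervals match an annotated intron of the listed gene. Another 36 match an annotated intron of a different gene, which for 29 lies on the opposite strand and for 7 on another chromosome than the listed gene. For these 36 the gene of the table is uncertain, and 16 of them are listed under genes that are not protein-coding, 12 genes in all. One example is FIP2, a name that the reference gives to AT4G17060 on chromosome 4 and to AT5G55000 on chromosome 5: the table lists the former gene with an intron of the latter.

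The other 62 intervals match no annotated intron, and 58 of them lie inside an annotated exon of the listed gene. They read GT to AG on the strand of the gene in 39 cases, only on the opposite strand in 8 and on neither strand in 15. Direct repeats of 8 or more bases at the ends were found in 6 of these 39, 4 of the 8 and 2 of the 15. Among intervals that match an intron of the listed gene they were found in 4 of 327 (1.22%), GRP7 and UBQ10 included, and among annotated introns that another transcript keeps in 227 of 10504 (2.16%). Among the 62 were intervals of photosynthesis genes: RBCS1A, the Rubisco small subunit, was listed for 112 and 47 nt and PSBO1, a subunit of the oxygen-evolving complex, for 78 and 31 nt, none of the 4 reading GT to AG on the strand of the gene. The dehydrin gene ERD10 had an interval of 41 nt that reads GT to AG and another of 57 nt that does not. Without intervals with such repeats, 184 introns stood in both tables, 93 in the Col-0 table alone and 132 in the smeb table alone. RBCS1A, LHCB2.1 and the polyubiquitin genes have near-identical copies, and the assignment of reads between copies is not stated.

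The retained introns were short. Their median length was 99 nt, with quartiles of 82 and 140 nt. It was 97 nt for introns in both tables, 111 nt in Col-0 alone and 95 nt in smeb alone. The 327 matched introns had a median of 100 nt, beside 102 nt for all 136443 annotated introns and 113 nt for the 10504 that another annotated transcript keeps. Intervals over 300 nt made up 5.65% of all 425. Among the 327 matched introns the share was 7.03%, beside 13.3% of all annotated introns and 16.2% of those that another transcript keeps. The longest was intron 6 of U1-70K with 909 nt, followed by the 5′ UTR intron of IPK2a, an inositol polyphosphate kinase, with 729 nt and one of AT4G27610 with 710 nt. The shortest of the matched introns lay in the 3′ UTR, of PBP1 with 19 nt, AT5G22050 with 20 nt and delta-ADR, a subunit of an adaptor complex of vesicle coats, with 33 nt.

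**Figure D2:**
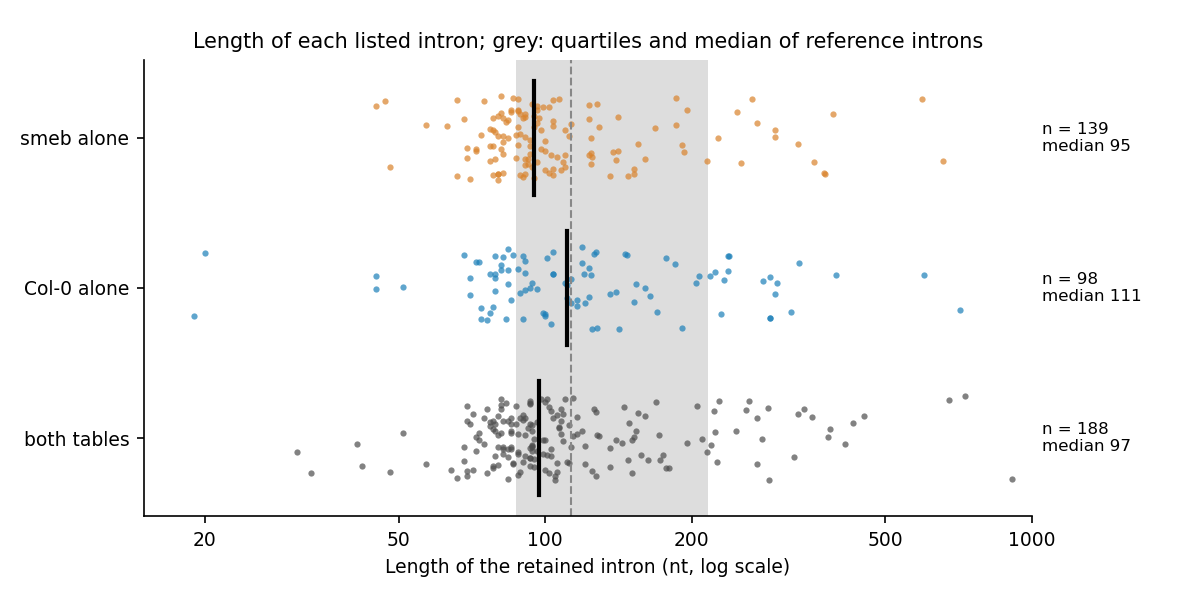
Length of each of the 425 listed introns (x axis, nt, log scale) for introns in both tables, in the Col-0 table alone and in the smeb table alone. Black lines are medians (97, 111 and 95 nt), and the grey band and dashed line give the quartiles and the median (113 nt) of annotated introns that another transcript keeps. Points are spread vertically at random within a class for legibility.

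Of the 327 matched introns, 325 (99.4%) lie inside an exon of another annotated transcript of the gene, against 7.70% of all annotated introns. Their retention was thus almost always a form that the annotation already holds, and the 10504 annotated introns of that kind serve below as the closer reference. Which introns were tested, and whether candidates were drawn from annotated forms, is not stated. Neither reference is thus known to be the tested set. Whether differences from a reference in length, place, splice sites or reading belong to chilling was not tested. By place, 115 of the 327 (35.2%) lay in the 5′ UTR, 161 (49.2%) in the coding sequence, 43 (13.1%) in the 3′ UTR and 8 (2.45%) in non-coding transcripts. In the closer reference the 5′ UTR held 26.3%, the coding sequence 58.8% and the 3′ UTR 8.91%, and among all annotated introns the coding sequence held 87.9%. The share in the 5′ UTR was 33.3% in both tables, 37.3% for Col-0 alone and 36.0% for smeb alone. The intron was the first of several in its transcript in 36.4% of cases, beside 32.3% in the closer reference and 16.8% of all annotated introns.

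**Figure D3:**
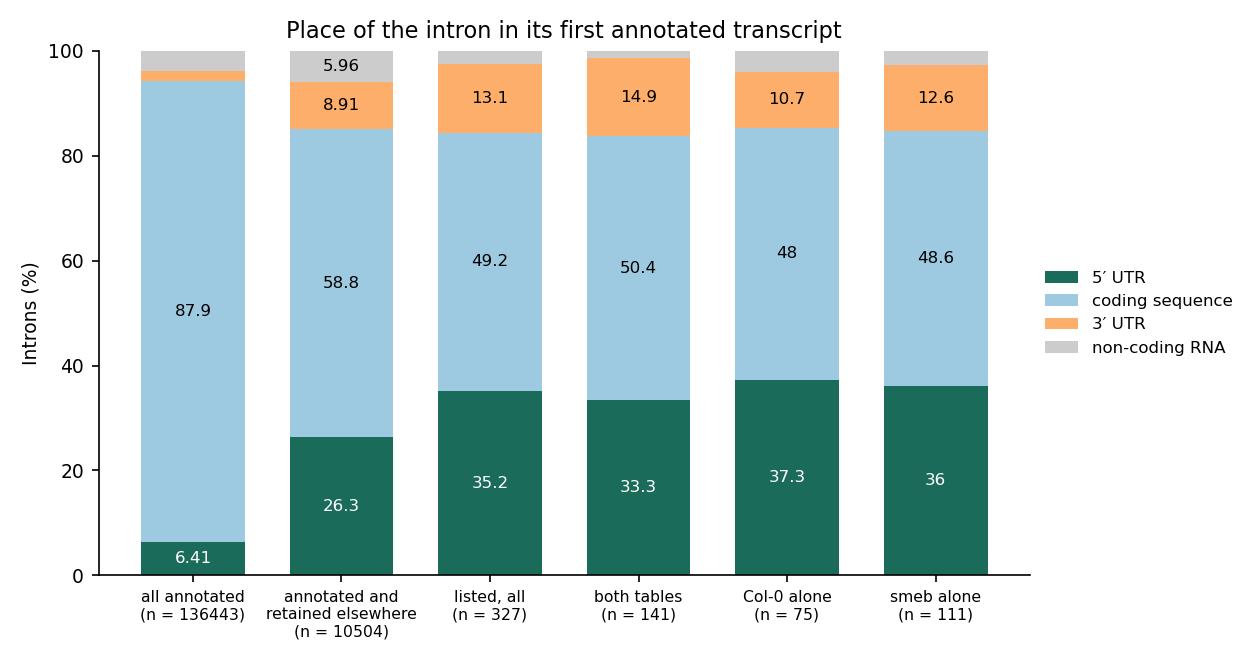
Share of introns (y axis, percent) in the 5′ UTR, the coding sequence, the 3′ UTR or a non-coding transcript, for 2 sets of reference introns and for the matched listed introns by table. The 5′ UTR part is 6.41% of all annotated introns, 26.3% of those that another transcript keeps and 35.2% of the listed introns.

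Splice sites were mostly of the common form. GT and AG stood at the ends of 97.2% of the matched introns, and GC and AG at the ends of 2.75%. The first 5 bases were GTAAG in 16.2%, beside 16.7% of all annotated introns. The median score of the 5′ splice site, a log2 odds of its 3 exon and 6 intron bases over genome base frequencies, was 6.23, beside 6.94 for all annotated introns and 6.33 in the closer reference. The median score of the 3′ splice site was 6.88, beside 7.63 and 6.89. Both scores were lower than those of all introns but near those of introns that another transcript keeps. The median GC content of the intron was 34.9%, beside 32.8% and 33.7%. The start of a U12-type intron, ATATCC or GTATCC as the first 6 bases on the gene's strand, was found in 0 of the 327, beside 0.383% of all annotated introns. It was found in an unannotated interval of 88 nt in MEE29, a helicase, to which the authors' deposited table for smeb gives an FDR of 0.0337.

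If kept, 117 of the 161 coding introns (72.7%) would bring an in-frame stop, beside 75.0% of the coding introns in the closer reference and 89.0% of all coding introns. The stop lay a median of 34 nt into the intron. In 80 of the 117 (68.4%) it lay more than 50 nt before the last exon junction, the usual mark of a target of nonsense-mediated decay, beside 61.8% in the closer reference and 81.5% of all coding introns with a stop. The stop of U1-70K, at base 115 of intron 6, and that of ATU2AF65A, at base 111 of intron 11, were of this kind. The stop of RCA, at base 15 of its last intron, was not. By table, 47 of 71 coding introns in both tables, 30 of 36 in Col-0 alone and 40 of 54 in smeb alone brought a stop. Nearly all matched introns lie inside an exon of another annotated transcript. A stop counted here can thus be the regular stop of that transcript, and how often this holds was not tested.

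A further 30 coding introns (18.6%) kept the frame without a stop, beside 15.6% in the closer reference and 3.41% of all coding introns. They were 17 of the 71 in both tables, 4 of the 36 in Col-0 alone and 9 of the 54 in smeb alone. Besides GRP7, COR15A, GLU1, ARC5, MAF1 and UBQ10, they include VCS, a scaffold of mRNA decapping, with 35 codons, SYD, a chromatin-remodelling ATPase, with 31 codons in intron 34, and PLDGAMMA2, a phospholipase, with 32 codons. The remaining 14 brought no stop of their own but shifted the frame, as in ABF3, a transcription factor of abscisic acid signalling, and in PMDH2, a peroxisomal malate dehydrogenase.

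**Figure D4:**
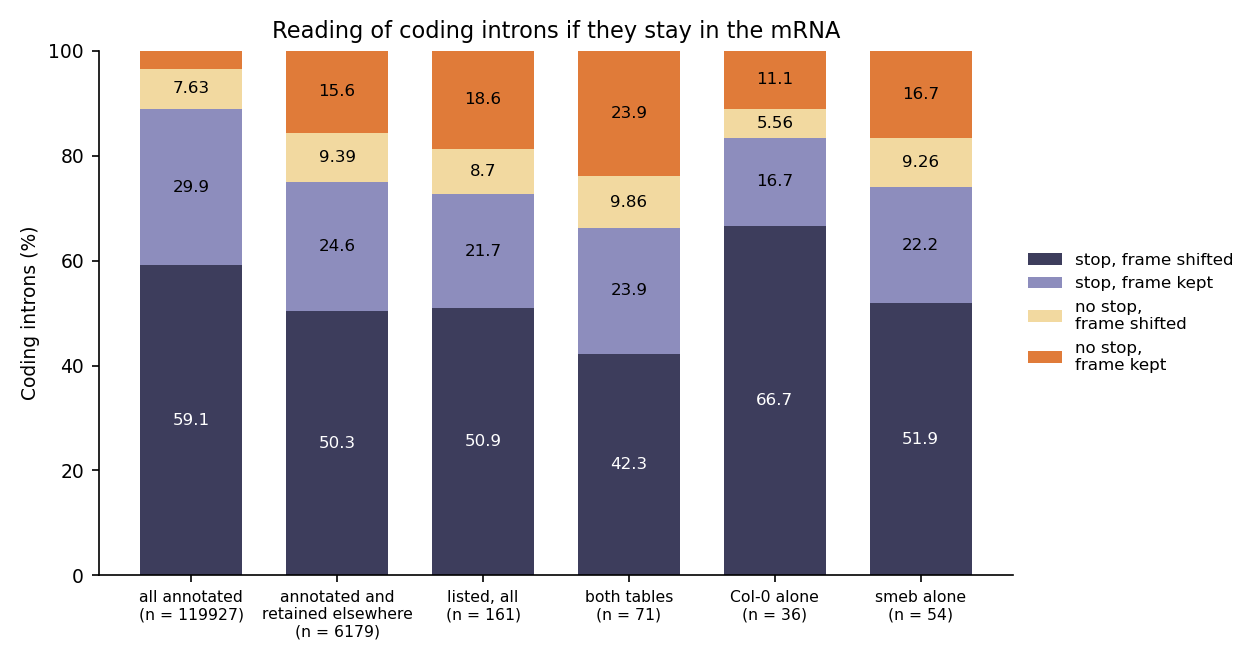
Share of coding introns (y axis, percent) by what the reference sequence reads if the intron is kept: a stop with the frame shifted or kept, no stop with the frame shifted, or no stop with the frame kept. The last part is 3.41% of all coding introns, 15.6% of those that another transcript keeps, and 23.9%, 11.1% and 16.7% of the listed introns in both tables, Col-0 alone and smeb alone.

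Introns with the lowest FDR came from genes of many roles. With an FDR of 0 for each genotype the authors' deposited table lists, beside U1-70K, ATU2AF65A and GRP7, the 5′ UTR introns of TRIP-1, a subunit of translation initiation factor eIF3, GOX1, a glycolate oxidase of photorespiration, UBC8, a ubiquitin-conjugating enzyme, and UGT80B1, a sterol glucosyltransferase. The coding intron 8 of RLM3, a disease resistance protein, and the 3′ UTR intron of BBD1, a nuclease of basal defence, have 0 for each genotype in the authors' deposited table too. Of the 60 shared introns that met the rule for naming, 22 have 0 for each genotype in the authors' deposited table, so the order among them is set by the rule for ties.

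In Col-0 alone, the authors' deposited table gives 2 introns that met the rule an FDR of 0: intron 6 of RCA and intron 1 of TCH3, a calmodulin-like calcium sensor. The next were intron 2 of LHCB2.1, a light-harvesting protein of photosystem II, at 1.1e-11 and intron 9 of EMB2654, a protein of the pentatricopeptide type, at 2.79e-05 in the authors' deposited table. The last intron of ATHB-15, a homeodomain factor of vascular patterning, followed at 0.000112 and intron 4 of AHP2 at 0.000125 in the authors' deposited table. A 5′ UTR intron of SR1, also known as CAMTA3, a calmodulin-binding activator of cold-induced CBF genes, stood at 0.000269 in the authors' deposited table. RBP47C, an RNA-binding protein, and SEN1, an endonuclease of tRNA splicing, also fell in this class. Of the 10 named introns of Col-0 alone, 8 lay in the coding sequence, and 7 of these 8 brought a stop. Whether such a stop is the regular stop of another annotated transcript was not tested.

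In smeb alone, the authors' deposited table gives 15 introns that met the rule an FDR of 0. The 10 named are those of PLDGAMMA2, PTM, a transcription factor anchored in the chloroplast envelope, RCD1, a regulator of stress responses, WCRKC1, a chloroplast thioredoxin, GLU1, SLK2, a transcriptional co-regulator, DEK1, a calpain of epidermis formation, AFP3, a partner of the factor ABI5, PUR5, an enzyme of purine synthesis, and UBQ14. Of these 10, 4 lay in the coding sequence and 6 in a UTR. The stop in RCD1 lay at base 7 of its last intron, and the other 3 coding introns brought none. PLDGAMMA2 was also listed for a different interval of 127 nt, which matches no annotated intron and stood in Col-0 alone. For that interval the authors' deposited table has 0 as the FDR. The class smeb alone thus holds for the named intron of PLDGAMMA2 and not for the gene.

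Of 191 genes in 13 lists of splicing, clock, cold, hormone, light and housekeeping genes, 22 had a listed retained intron, 17 in each table and 12 in both. Among 24 Sm and LSm proteins none was listed, and among 20 SR and SR-like proteins RSZ22a was the single gene with a retained intron, although 12 of the 20 had an event of some kind. The 2 of 7 genes around the U1 snRNP were U1-70K and AT5G51410, which encodes a LUC7 N-terminus domain protein. ATU2AF65A, with 2 intervals, stood for 5 genes of 3′ splice site recognition, and RDM16, annotated as pre-mRNA-splicing factor 3, for 14 genes of the core spliceosome. Every listed interval of these splicing genes stood in both tables. Those of RSZ22a and RDM16, and the one of 100 nt in ATU2AF65A, match no annotated intron.

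Of 22 genes of cold signalling, 3 were listed: COR15A and ERD10 in both tables, and SR1 in Col-0 alone. COR15A was a call close to the limit, at 0.0261 for Col-0 and 0.0115 for smeb in the authors' deposited table. Of 17 genes of abscisic acid signalling, HAB1 was listed in Col-0 alone, with 0.0117 in the authors' deposited table, and ABF3 and AFP3 in smeb alone, at 0.0156 and 0. PIF5, a phytochrome-interacting factor named PIL6 in the reference, was the single one of 20 light-signalling genes, for an unannotated interval of 79 nt in Col-0 alone. Of 24 photosynthesis genes 5 were listed, RCA and LHCB2.1 in Col-0 alone, PETC in smeb alone, and RBCS1A and PSBO1 in both. Of 5 polyubiquitin genes 3 were listed, UBQ10 in both tables and UBQ3 and UBQ14, each for the first intron in the 5′ UTR, in smeb alone. None of 4 genes of nonsense-mediated decay was listed. Since 1.64% of all genes with an annotated intron and 5.53% of those with an annotated retention were listed, and since the lists were chosen with results known, nothing particular to any list is read from these counts.

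**Figure D5:**
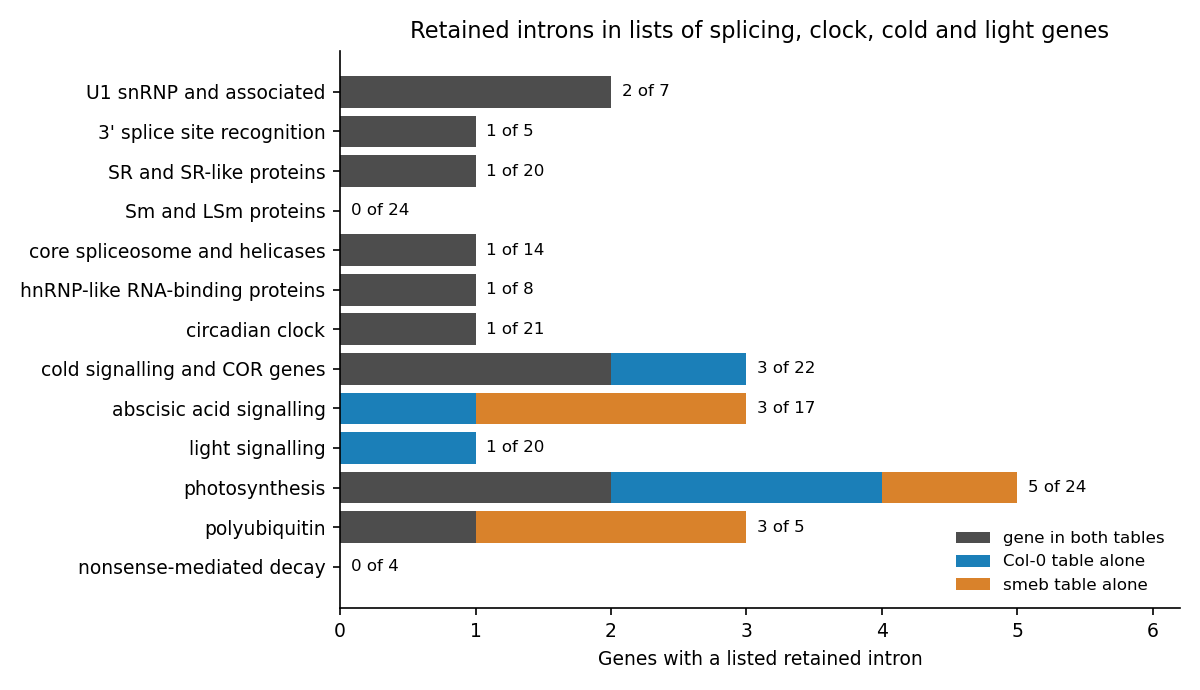
Number of genes (x axis) with a listed retained intron in each of 13 gene lists, split by whether the gene stands in both chilling tables, in the Col-0 table alone or in the smeb table alone. The labels give the count of all genes in the list, from 0 of 24 Sm and LSm genes to 5 of 24 photosynthesis genes.

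By product name, 13 of the 382 protein-coding genes (3.40%) were annotated as RNA-binding proteins or splicing factors, beside 2.07% of the protein-coding genes with an annotated retention. Among genes with an FDR under 0.001 in the authors' deposited table the share was 5.68%. The interval of the 3.40% over genes ran from 1.82% to 5.75%, and so held both the 2.07% and the 5.68%. The share under this stricter limit was formed for no other class. Kinases made up 4.19% beside 6.88%, transcription factors 6.54% beside 6.78% and genes of the ubiquitin pathway 4.45% beside 4.32%. Photosynthesis genes of the chloroplast made up 1.05%, which is 4 genes, beside 0.284%. The 382 genes include some whose interval matches no annotated intron of the gene, while the reference genes all have an annotated retention. With so few genes and unlike sets, nothing particular to a class is read from these shares.

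The authors also deposited lists of genes with SmEb-dependent and SmEb-independent events. Of the 98 introns in Col-0 alone, 80 lay in genes of the dependent list, and the other 18 lay in genes outside that list. Of the 139 introns in smeb alone, 102 lay in genes of the independent list, and the other 37 lay in genes outside that list. The lists thus do not hold every gene with an intron that stands in a single table. Of all genes of the independent list 101 of 352 (28.7%) had a retained intron, beside 310 of the 1097 genes in the smeb table. Of the dependent list 80 of 394 (20.3%) did, beside 277 of the 1140 genes in the Col-0 table. Whether the lists differ from each other or from their tables in this share was not tested. Of the 18 genes under the term RNP complex biogenesis, for which the authors' deposited table gives an adjusted p of 0.0407, 8 had a retained intron, among them NUC-L1, the ribonuclease P subunit POP4, the snoRNP assembly factor NUFIP, the exosome subunit RRP45a and the ribosomal protein gene RPS5B. In the dependent list, the term RNA splicing held 4 such genes of 11, EMB2654, SEN1, emb1138 and AT3G13225, and the authors' deposited table gives it an adjusted p of 0.232. The term regulation of RNA splicing, at an adjusted p of 0.133 in the authors' deposited table, held 0 of 5. The interval of NUC-L1 is the one of 45 nt that a direct repeat covers in full, and it matches no annotated intron. Genes under a term are few, and nothing particular to a term is read from these counts.

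At 22 °C, the smeb table lists 34 of 10657 tested events, or 0.319%. Of the 425 retained introns of the chilling tables, 4 were also listed there as retained introns. They were intron 6 of U1-70K, intron 6 of RCA, and intervals in AT4G19200, a proline-rich protein gene, and AT5G53048, a non-coding RNA. For 22 °C the authors' deposited table gives U1-70K an FDR of 0.00194 and the other 3 an FDR of 0. U1-70K stood in both chilling tables, RCA and AT5G53048 in Col-0 alone and AT4G19200 in smeb alone. U1-70K and RCA are the 2 of the 4 that match an annotated intron of the listed gene.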

How the data were processed

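RNA was sequenced by the submitters from 12 seedling libraries. The submitters' processing notes name TAIR10 as the build, TopHat2 (version 2.0.13) and Trimmomatic (version 0.32). For the event caller, its filters and its handling of strand, the sources used here give nothing. The p-value and FDR of each event are values the authors deposited, per the file headers, with no value per library, so the depth per library is unknown and no interval or SD over libraries could be given. Intervals were counted as identical where gene and position agreed.

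Positions were matched to the RefSeq annotation of TAIR10.1, whose coordinates are those of TAIR10, and introns numbered in the first annotated transcript that holds them. Numbers of tested events were recovered from p-value times number over FDR, whole within 0.0001 for 85.3% of Col-0, 88.4% of smeb and 87.0% of 22 °C events with a p-value above 0. Functions were tested on simulated data. Python  was used.

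The members, gene lists and keyword lists were chosen with earlier results of these data known. For each of both tables, Col-0 alone and smeb alone, the 10 matched GT to AG introns with the lowest FDR and a gene symbol were named, with ties by the number of listed introns and events of the gene, beside the longest, the shortest and those nearest the FDR limit. The introns whose sequences are shown, the introns that keep the frame and those with direct repeats were singled out after their values were seen. Replicates were taken as separate samples by their titles.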

Additional observations from a re-analysis of the deposited data

How the results depend on the processing

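No paired analysis was possible because the tables hold no values per library, and for the same reason no replicate could be left out. A count was taken as moved beyond 1.5 times the reported one, a share or median outside the 95% interval of the reported one over introns or genes, and a difference from a reference by more than the wider arm of that interval. By these limits 134 of 151 alternative values did not move, 16 moved and 1 reversed. The share of RNA-binding or splicing genes stayed within its interval but was 5.68% in place of 3.40% under an FDR of 0.001. Under an FDR limit of 0.01 in place of 0.05, Col-0 alone held 60 introns and the share of smeb introns in the Col-0 table was 51.9%. Under 0.001, both tables held 103 and Col-0 alone 38, genes numbered 135 in Col-0 and 205 in smeb, the shared parts were 73.0% of Col-0 and 48.6% of smeb introns, and 10.6% of Col-0 introns overlapped another event. With matched introns alone, 2 were also listed at 22 °C in place of 4. Against annotated introns that another transcript keeps, a reference added after seeing the data, the median length of matched introns differed by -13 nt in place of -2, the 5′ UTR share by 8.86 percentage points in place of 28.8, the 5′ splice site score by -0.094 in place of -0.70, the GC content by 1.15 in place of 2.1, and the share kept in another transcript by -0.61 in place of 91.7, by that reference's construction. Against introns of genes with any listed event, the GC difference was 1.39 and that of the share kept 85.9. Leaving out intervals with direct repeats, also added after seeing the data, moved none of the 23 values by these limits, with 184 introns in both tables, 93 for Col-0 alone and 132 for smeb alone.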
